A study of Mus musculus with 2 samples.

Results

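Adipokines are hormones and other signalling proteins that fat tissue releases, and 7 of their genes, Adipoq, Lep, Retn, Cfd, Rbp4, Nampt and Rarres2, were followed here by symbol among the 21113 genes of the deposited tables. All 7 had a row and all 7 passed the minimum used for a measured gene, a deposited value of at least 1 in either library. Polyadenylated RNA of mammary glands from C57BL/6 mice at postnatal week 6 had been sequenced in 2 libraries, 1 per genotype. The ILN/ILN library came from a sample whose Mir212/132 locus, which encodes miR-212 and miR-132, carried on both chromosomes a cassette named ILN, made of IRES, LacZ and Neo parts. The WT library came from a wild-type sample of the same strain and age. The labels do not say how many animals each sample held. The transcripts of the altered locus were not analysed here, and the genotype labels were taken as given.

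At this age the mammary gland is largely a fat pad into which the ducts are still growing. White adipocytes of that pad store triglyceride and release adipokines into the blood and to neighbouring cells. Leptin reports the size of the fat stores to the brain, adiponectin raises insulin sensitivity, and resistin lowers it in mice. Adipsin is a protease of the complement system, retinol-binding protein carries vitamin A, and chemerin attracts immune cells.

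Fragments in genes numbered 42953129 in the ILN/ILN library and 46133338 in the WT library. A fragment here is the whole number obtained from the deposited signal per kilobase and the deposited gene length. Levels are the deposited FPKM-like values, which are scaled for gene length and library size. Ratios are ILN/ILN over WT fragments after division by the library totals, and the interval after each ratio is its exact conditional (Clopper-Pearson) 95% interval. Such intervals cover counting error alone, and sequenced fragments are not independent molecules. With 1 library per genotype no difference below has a replicate check, and no test or p-value could be computed. In whole tissue, fewer cells of a type and less RNA per cell cannot be told apart.

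The sequences that bear on the genotype are those of the microRNAs at the altered locus. Both 3p strands carry the same seed, bases 2 to 8, given in capitals in the RefSeq sequences (GRCm38.p6, plus strand), miR-212-3p at chr11:75173443-75173464 and miR-132-3p at chr11:75173723-75173744.
mmu-miR-212-3p: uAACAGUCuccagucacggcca
mmu-miR-132-3p: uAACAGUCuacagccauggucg
The letters that pair with this seed, GACTGTT, were searched in the longest 3′ untranslated region that GENCODE M21 gives each gene, on the transcript strand. No adipokine had a match. The untranslated regions of Lep and Nampt were long, at 2695 and 2816 bases, and the match occurred in 24.1% of all regions of at least 2000 bases. Those of Adipoq (434 bases), Rbp4 (243), Rarres2 (121) and Cfd (69) were short, and among all regions of up to 500 bases 2.00% held the match. The region of Retn was 710 bases long, and over all 21037 genes searched the share was 10.7%. The absence of a match says only that these letters are not in these windows.

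The adipokine genes spanned a wide range of levels, and their order was the same in both libraries. Cfd came first, followed by Adipoq, Retn, Rarres2, Rbp4, Lep and Nampt. Cfd was the gene with the second highest level in both libraries, behind Fabp4, the fatty acid binding protein of adipocytes. Its level was 1898 times that of Nampt in the ILN/ILN library and 2749 times in the WT library. The smallest step in this order lay between Rarres2 and Rbp4, whose levels stood at a ratio of 1.14 in the ILN/ILN library and 1.59 in the WT library. No spread between samples was at hand to judge these steps.

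**Figure D1:**
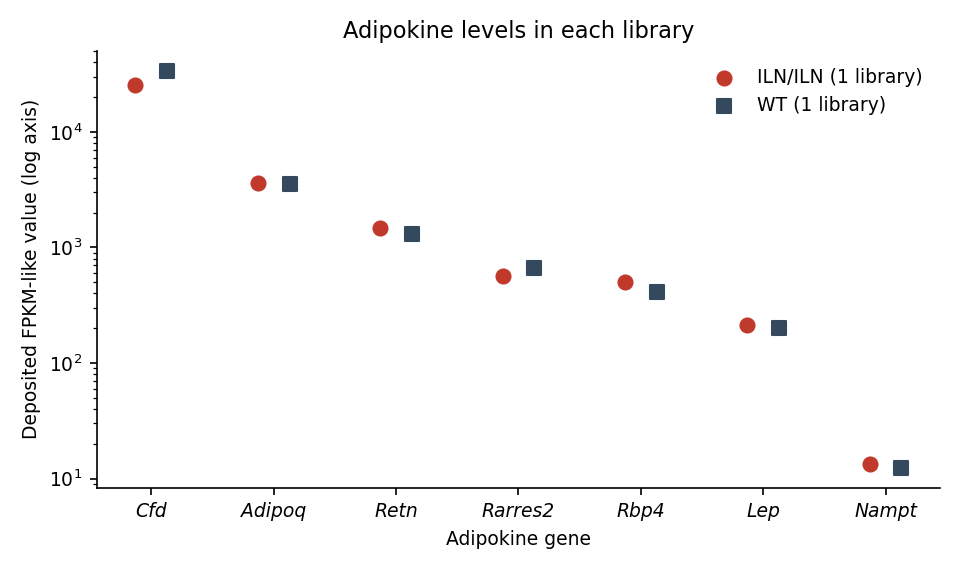
Deposited FPKM-like value on a log axis for each adipokine gene, with the ILN/ILN library as circles and the WT library as squares, 1 library each. The order of the genes is the same in both libraries, and Cfd, at 25466 in ILN/ILN and 33952 in WT, has the widest vertical gap in value.

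Most adipokines differed little between the genotypes. The smallest threshold used was a level at least 25% higher or at least 20% lower in the ILN/ILN library, which is the same fold in each direction. Cfd was the single adipokine of 7 at least 20% lower, and 15.7% of all 11534 measured genes were at least that much lower. No adipokine was at least 25% higher, a size that 12.1% of measured genes reached. None of the 7 was past 1.5-fold, where the shares of all measured genes were 2.84% higher and 7.59% lower. A ratio above 1 was found for 5 of 7 adipokines and for 52.7% of measured genes. The median log2 ratio of the 7 was 0.10, against 0.02 over all measured genes.

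Counting error was small for these genes, since 6 of 7 had more than 10000 fragments in both libraries. Among the 5527 genes with at least 1000 fragments in both libraries, 8.96% were at least 25% higher and 7.96% at least 20% lower, and 83.1% lay between. A ratio above 1 was found for 58.1% of them. The positions of single adipokines given below are places in this deeply counted set, in which the median log2 ratio was 0.04.

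**Figure D2:**
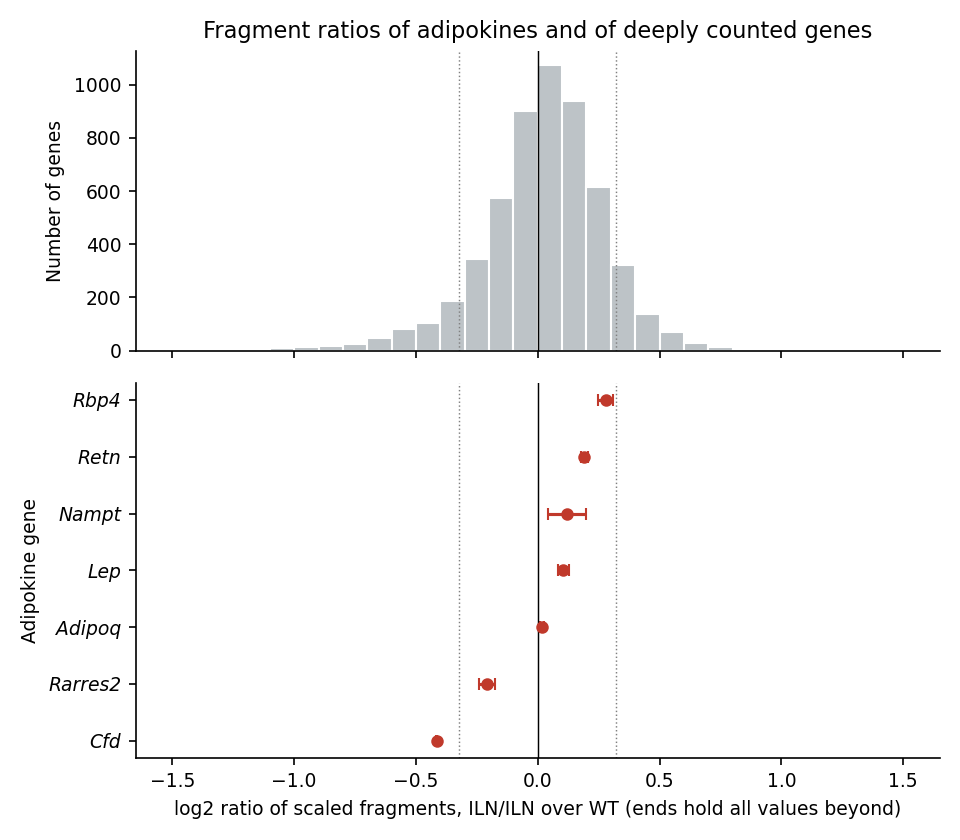
Upper panel, number of genes by log2 ratio of scaled fragments (ILN/ILN over WT, bins of 0.1) for the 5527 genes with at least 1000 fragments in both libraries; lower panel, the 7 adipokines on the same axis with 95% counting intervals, 1 library per genotype. Dotted lines mark 20% lower and 25% higher, and Cfd is the adipokine outside them.

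Adipsin, the product of Cfd, is complement factor D, and chemerin, the product of Rarres2, is an attractant of macrophages and dendritic cells. The adipokines were grouped for description with their ratios known, so the groups are no result about classes of adipokines. Cfd had a level of 25466 in the ILN/ILN library and 33952 in the WT library, from 980410 fragments in ILN/ILN and 1404483 in WT. The ILN/ILN level was 1.33-fold lower (1.330 to 1.337), and 5.23% of deeply counted genes had a lower ratio. Cfd alone took 2.28% of all fragments in the ILN/ILN library (exact binomial 95% interval 2.278 to 2.287) and 3.04% in the WT library (3.039 to 3.049). Rarres2 had a level of 570 in the ILN/ILN library and 658 in the WT library, from 13513 fragments in ILN/ILN and 16770 in WT. It was 1.16-fold lower (1.13 to 1.18), and 14.5% of deeply counted genes had a lower ratio. These were the only adipokines of the 7 with a lower level in the ILN/ILN library.

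The hormones best known from energy balance were level or slightly higher. Adipoq, which encodes adiponectin, was at 3580 in the ILN/ILN library and 3534 in the WT library, from 187506 fragments in ILN/ILN and 198871 in WT. Its ratio of 1.01 (1.006 to 1.019) turned below 1 when the libraries were scaled by the median of gene ratios, with a log2 value of -0.0035. Lep, which encodes leptin, was at 214 in the ILN/ILN library and 199 in the WT library, from 30819 fragments in ILN/ILN and 30787 in WT. The Lep ratio was 1.08 (1.06 to 1.09), and 37.7% of deeply counted genes had a higher ratio. Retn, which encodes resistin, was at 1483 in the ILN/ILN library and 1298 in the WT library, from 70107 fragments in ILN/ILN and 65938 in WT. The Retn ratio was 1.14 (1.13 to 1.15), with 22.7% of deeply counted genes above it. Adiponectin, leptin and resistin transcripts thus lay between 20% lower and 25% higher.

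Rbp4 and Nampt encode proteins that many tissues besides fat also make, a carrier of retinol in the blood and the rate-limiting enzyme of NAD salvage, which is also found outside cells and was once named visfatin. Rbp4 was at 502 in the ILN/ILN library and 413 in the WT library, from 18182 fragments in ILN/ILN and 16097 in WT. Its ratio of 1.21 (1.19 to 1.24) was the highest of the 7, and 12.6% of deeply counted genes had a higher one. Nampt was at 13.4 in the ILN/ILN library and 12.4 in the WT library, from 2712 fragments in ILN/ILN and 2682 in WT. The Nampt ratio was 1.09 (1.03 to 1.15), with the widest counting interval of the 7. Rbp4 is the single adipokine of the set with more than 1 annotated isoform in the deposited tables, and its deposited values came from the fragments in both libraries.

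Because Cfd held most adipokine fragments, the sum and the single genes pointed in different directions. The 7 genes together took 3.03% of all fragments in the ILN/ILN library and 3.76% in the WT library, a sum that was 1.24-fold lower (1.237 to 1.243). Cfd made up 75.2% of these fragments in the ILN/ILN library and 80.9% in the WT library. Without Cfd the other 6 genes took 0.752% in the ILN/ILN library and 0.718% in the WT library, a ratio of 1.05 (1.042 to 1.052).

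Ratios of genes within a library do not depend on the scaling of libraries. There were 5.23 Cfd fragments per Adipoq fragment in the ILN/ILN library and 7.06 in the WT library, a quotient that was 1.35-fold lower (1.34 to 1.36, from the normal approximation on the log scale for counting error). Rarres2 fragments per Adipoq fragment numbered 0.0721 in the ILN/ILN library and 0.0843 in the WT library, 1.17-fold lower (1.14 to 1.20). The quotients to Adipoq were higher for the other 4 genes, by 1.06-fold for Lep (1.04 to 1.08), 1.07-fold for Nampt (1.02 to 1.13), 1.13-fold for Retn (1.11 to 1.14) and 1.20-fold for Rbp4 (1.17 to 1.22).

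The adipokines were then set against 18 other white adipocyte genes, which encode proteins of fat storage, release and sugar uptake. All 18 were measured, 15 had a ratio above 1, and the list had a median ratio of 1.19, so that 6 of 7 adipokines, Rbp4 excepted, had a lower ratio than this median. Plin1, the main coat protein of the lipid droplet, was at 556 in the ILN/ILN library and 421 in the WT library (ratio 1.32; 1.30 to 1.34). Pck1, an enzyme of glycerol synthesis in fat, was at 1890 in ILN/ILN and 1211 in WT (1.56; 1.55 to 1.57), Aqp7, the glycerol channel, at 31.7 in ILN/ILN and 18.4 in WT (1.72; 1.63 to 1.81), and Acsl1, which activates fatty acids, at 1045 in ILN/ILN and 688 in WT (1.52; 1.51 to 1.53). The other 3 of the 18 had a ratio below 1. Fabp4 was at 39645 in the ILN/ILN library and 40797 in the WT library (ratio 0.971; 0.969 to 0.974). Cidec, which enlarges lipid droplets, was at 2694 in ILN/ILN and 2821 in WT (0.954; 0.949 to 0.960). Thrsp, a gene of fat synthesis, was at 1277 in ILN/ILN and 1473 in WT (0.867; 0.857 to 0.876), and this ratio and that of Rarres2, 0.865 (0.846 to 0.885), had overlapping intervals.

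Relative to the median of the white adipocyte genes, Cfd was 1.59-fold and Rarres2 1.38-fold lower in the ILN/ILN library, and Adipoq was 1.18-fold lower. The choice of adipocyte genes mattered for the rest. Against Fabp4 alone, Adipoq, Lep, Retn, Rbp4 and Nampt had log2 ratios between 0.06 and 0.32, whereas against Plin1 alone all 7 were below 0. Cfd ranged from -0.82 to -0.37 and Rarres2 from -0.61 to -0.17 over the median of the list, its summed fragments, Plin1 and Fabp4, so both were lower against each of these denominators. Against Thrsp, Rarres2 was nearly level.

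**Figure D3:**
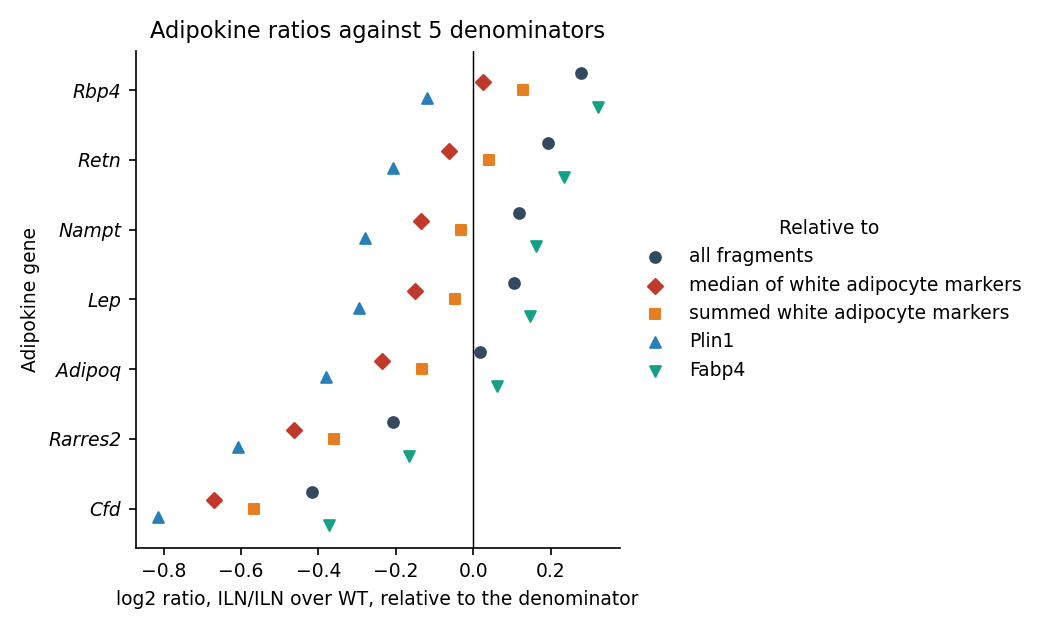
Log2 ratio of each adipokine, ILN/ILN over WT, when divided by all fragments, by the median or the summed fragments of 18 white adipocyte genes, by Plin1 or by Fabp4. Cfd (-0.82 to -0.37) and Rarres2 lie below 0 for all 5 denominators, whereas each of the other adipokines lies on both sides of 0.

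Of the measured adipokine receptors and binding proteins, only Cdh13 and Gpr1 differed by a larger fold than every ligand. Of 11 listed genes 8 were measured, of which 6 had a ratio above 1. At least 25% higher were 3 of them, and none was 20% lower, against 12.1% and 15.7% of all measured genes. Ccrl2, among the 3, passed the minimum through the ILN/ILN library alone, so it had to be higher. Over all 11, those under the minimum included, 6 had a ratio above 1 and 4 below, 2 of them past 1.5-fold. The median log2 ratio over all 11 was 0.02, against 0.20 over the 8. Cdh13, the T-cadherin that binds large adiponectin complexes on vessel and muscle cells, was at 26.4 in the ILN/ILN library and 14.0 in the WT library (1.89-fold higher; 1.77 to 2.01). The signalling receptors of adiponectin differed less. Adipor2 was at 374 in the ILN/ILN library and 309 in the WT library (1.21; 1.20 to 1.23), and Adipor1 at 115 in ILN/ILN and 106 in WT (1.09; 1.06 to 1.12).

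Among chemerin receptors, Gpr1 was at 5.61 in the ILN/ILN library and 2.72 in the WT library, from 399 fragments in ILN/ILN and 208 in WT (2.06-fold higher; 1.74 to 2.45). At least 2-fold higher ratios were found for 0.78% of measured genes. Cmklr1, the chemerin receptor of macrophages and adipocytes, had nearly equal levels of 83.2 in the ILN/ILN library and 82.2 in the WT library (1.01; 0.984 to 1.04). Ccrl2, which binds chemerin without signalling, had 112 fragments in ILN/ILN and 95 in WT, and its interval spanned 1 (1.27; 0.955 to 1.68). Cap1, reported as a resistin receptor in human cells, was at 88.2 in the ILN/ILN library and 97.7 in the WT library (ratio 0.903; 0.878 to 0.928).

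The receptor of leptin stayed under the minimum in both libraries. Lepr had 35 fragments in the ILN/ILN library and 147 in the WT library, levels of 0.246 in ILN/ILN and 0.963 in WT (3.91-fold lower; 2.69 to 5.83). Stra6, a retinol transporter that takes its load from retinol-binding protein, had 16 fragments in ILN/ILN and 42 in WT (2.44-fold lower; 1.35 to 4.66). Ttr, the blood partner of retinol-binding protein, which is made in liver, had 0 fragments in both libraries, which allows up to 0.0698 per 1000000 fragments in the ILN/ILN library and 0.0650 in the WT library.

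Adipsin acts within the alternative pathway of complement, in which it cleaves factor B bound to C3b. Of 9 measured genes around it 8 had a ratio below 1, 3 by at least 20%, and none was 25% higher. Their median log2 ratio was -0.18. Among all measured genes 15.7% were at least 20% lower and 12.1% at least 25% higher. Gpr77, among the 3, passed the minimum through the WT library alone, at 0.697 in ILN/ILN and 1.01 in WT, so it had to be lower. Over all 10 genes, those under the minimum included, 2 had a ratio above 1 and 8 below, with a median log2 ratio of -0.16. C3, the central component, was at 867 in the ILN/ILN library and 957 in the WT library (1.10-fold lower; 1.10 to 1.11). Cfb, the substrate of adipsin, had 15298 fragments in ILN/ILN and 17338 in WT (1.06-fold lower; 1.03 to 1.08), and at least 1 of its deposited values rests on an estimate other than these fragments. Cfp, properdin, which stabilises the convertase and is made by myeloid cells, was at 125 in the ILN/ILN library and 203 in the WT library (1.63-fold lower; 1.58 to 1.67). C5ar1, a receptor of myeloid cells for the C5a fragment, was at 11.3 in ILN/ILN and 15.7 in WT (1.39-fold lower; 1.293 to 1.498). Per length, Cfd exceeded C3 by 29.4 times in the ILN/ILN library and 35.5 times in the WT library.

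Markers of myeloid cells were lower in the ILN/ILN library too, as Cfd, Rarres2 and 8 of all 10 complement genes were. All 11 measured macrophage genes had a ratio below 1. Past 1.5-fold on the lower side were 4 of them, against 7.59% of all measured genes. Their summed level was 2172 in the ILN/ILN library and 3032 in the WT library. The remaining marker lists are given over every listed gene in the tables, those under the minimum included, since genes measured through the WT library alone had to be lower in the ILN/ILN library. All 10 B cell genes had a ratio below 1, with a summed level of 38.2 in the ILN/ILN library and 219 in the WT library. All 10 T cell genes did too, with a summed level of 26.9 in ILN/ILN and 80.8 in WT. Luminal epithelial genes, 13 in all, summed to 1.71 in the ILN/ILN library and 46.0 in the WT library. Of these 13, 11 were past 1.5-fold on the lower side, and Krt8, a keratin that defines these cells, was at 0 in ILN/ILN and 8.83 in WT. Spint1, at 0.483 in ILN/ILN and 0.496 in WT, and Ehf, at 0.205 in ILN/ILN and 0.239 in WT, were the luminal genes that differed less. Basal epithelial genes had a median log2 ratio of -0.37 over 8 genes, 7 with a ratio below 1 and 1 above. Krt5, Krt14 and Krt17 were at 0 in the ILN/ILN library. In the WT library they were at 0.801, 0.846 and 0.833, under the minimum as well. They had 78, 62 and 59 fragments in WT, and the upper ends of their ratio intervals were 0.052, 0.066 and 0.069. The counting intervals of Trp63, Myh11 and Cnn1 spanned 1. Acta2 was lower, at 43.4 in ILN/ILN and 56.5 in WT, and Oxtr was higher, at 3.51 in ILN/ILN and 2.8 in WT. Fat stroma genes had a median of 0.04 over 12 genes, 7 with a ratio above 1 and 5 below. Among those measured, Pi16 (ratio 0.707), Thy1 (0.800), Pdgfra (0.804) and Zfp423 (1.18) differed most, each with an interval that excludes 1. Endothelial genes had a median of 0.27 over 9 genes, 7 with a ratio above 1 and 2 below. Brown adipocyte genes had a median of 0.08 over 10 genes, 8 with a ratio above 1 and 2 below. Ucp1, the uncoupling protein that defines brown and beige fat cells, was at 25.98 in the ILN/ILN library and 59.7 in the WT library (2.30-fold lower; 2.18 to 2.43). Ppargc1a, a coactivator of mitochondrial genes, had 243 fragments in ILN/ILN and 156 in WT (1.67-fold higher; 1.36 to 2.06). Its deposited values, 2.12 in ILN/ILN and 0.509 in WT, lay further apart, and at least 1 of them rests on an estimate other than these fragments. Ppargc1a passed the minimum through the ILN/ILN library alone. Liver genes had a median of 0 over 10 genes, and Fga and Ttr were at 0 in both libraries. Skeletal muscle genes had a median of -1.08 over 8 genes, 5 of them past 1.5-fold on the lower side. These 5 had at most 64 fragments in either library. The summed level of the 8 was higher in the ILN/ILN library, at 62.1 against 50.6 in the WT library. Most of it was Myl1, at 51.4 in ILN/ILN and 37.7 in WT (1.36-fold higher; 1.26 to 1.47). The part of these cell types in the adipokine ratios was not tested.

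**Figure D4:**
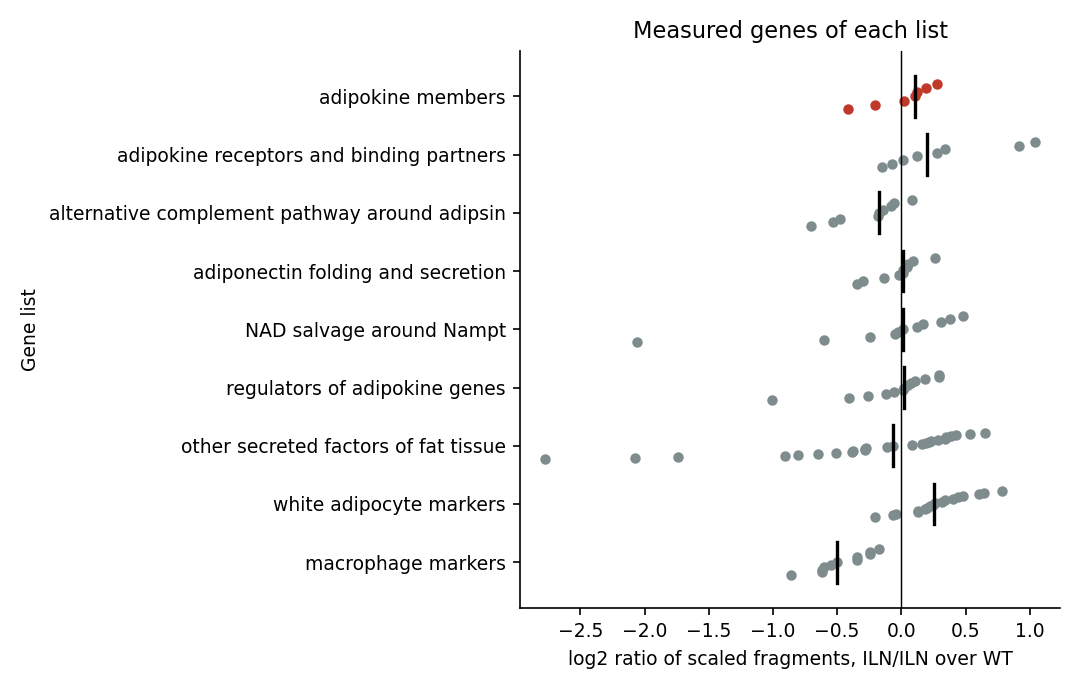
Log2 ratio of scaled fragments (ILN/ILN over WT) for each measured gene of 9 lists, 1 library per genotype, with a bar at the list's median. The 7 adipokines lie between -0.42 and 0.28, and all 11 macrophage genes lie below 0.

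Transcription factors that act on adipokine genes gave a mixed picture. Of 13 measured genes 8 had a ratio above 1, the median log2 ratio was 0.02, 2 were lower by at least 20% and none was 25% higher. The shares of all measured genes were 52.7% above 1, 15.7% at least 20% lower and 12.1% at least 25% higher. Pparg, the main regulator of fat cell formation, was at 149 in the ILN/ILN library and 147 in the WT library (1.01; 0.983 to 1.04). The C/EBP family split by member. Cebpa, the form of mature adipocytes, was at 181 in the ILN/ILN library and 148 in the WT library (1.22; 1.199 to 1.248). Cebpb, an early factor of fat cell formation that is also induced in inflammation, was at 13.4 in the ILN/ILN library and 26.9 in the WT library (2.01-fold lower; 1.85 to 2.18), and 3.36% of measured genes were lower by 2-fold or more. Cebpd was at 26.9 in ILN/ILN and 35.6 in WT (1.33-fold lower; 1.258 to 1.399).

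C/EBP proteins bind a palindromic motif, and TTGCNNAA was searched on both strands in the 300-base windows that RefSeq (GRCm38.p6) gives from 250 bases before to 50 after each gene's start. Windows were at hand for 6 of the 7 adipokine genes, 7 windows in all, and none for Rarres2. The motif occurred in the Lep window and in 1 of 2 Rbp4 windows, compared with 10.8% of all 32851 windows. The windows of Cfd, Adipoq, Retn and Nampt held no match. The motif is shown in capitals, on the strand of the gene, because Cebpa and Cebpb differed in opposite directions between the libraries. The Rbp4 match lies on the opposite strand.
Lep, chr6:29060136-29060215, plus strand: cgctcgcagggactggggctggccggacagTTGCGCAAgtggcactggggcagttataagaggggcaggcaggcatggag
Rbp4, chr19:38124890-38124969, minus strand: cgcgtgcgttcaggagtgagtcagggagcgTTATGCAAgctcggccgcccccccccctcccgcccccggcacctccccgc
The motif began 55 bases before the annotated start of Lep and 128 bases before that of Rbp4. TATAA, also read on both strands, lies downstream of the motif in the Lep stretch and occurred in 24.9% of all windows. These matches describe letters and do not show that a factor bound there.

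Genes for the assembly and release of adiponectin, which is built into disulphide-linked complexes in the endoplasmic reticulum, were near equal. Of 10 measured genes 6 had a ratio above 1, 1 was lower by at least 20%, and the median log2 ratio was 0.01. The shares of all measured genes were 52.7% above 1 and 15.7% at least 20% lower. Ero1l, the oxidase that promotes adiponectin release, had 399 fragments in the ILN/ILN library and 357 in the WT library (1.20; 1.04 to 1.39). Its paralog Ero1lb had 311 in ILN/ILN and 424 in WT (1.27-fold lower; 1.09 to 1.47). Erp44, which holds adiponectin back through thiol bonds, was at 12.3 in the ILN/ILN library and 12.2 in the WT library, and Gstk1, known as DsbA-L, at 81.9 in ILN/ILN and 76.8 in WT.

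Around Nampt, 11 genes of NAD metabolism were measured, 6 with a ratio above 1 and a median log2 ratio of 0.01. At least 25% higher were 2 of them, and at least 20% lower were 2, against 12.1% and 15.7% of all measured genes. The median was 0.12 on the deposited values with a pseudocount of 1 and -0.012 with the libraries scaled by the median of gene ratios. Nmnat1, the nuclear enzyme that completes NAD from the product of Nampt, was at 8.93 in the ILN/ILN library and 6.41 in the WT library, from 355 fragments in ILN/ILN and 274 in WT (1.39; 1.19 to 1.64). Nadsyn1, the final enzyme of NAD synthesis from nicotinic acid and tryptophan, was at 3.64 in ILN/ILN and 2.79 in WT (1.30; 1.13 to 1.51). Past 1.5-fold on the lower side were Cd38 and Qprt. Cd38, an NAD-consuming surface enzyme of leukocytes, was at 5.65 in ILN/ILN and 8.59 in WT (1.52-fold; 1.39 to 1.67). Qprt, of the route from tryptophan, had 17 fragments in ILN/ILN and 76 in WT (4.16-fold; 2.44 to 7.51). Qprt passed the minimum through the WT library alone, so it had to be lower. Over all 12 genes, those under the minimum included, 6 had a ratio above 1 and 6 below.

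Other secreted factors of fat tissue covered a wider range of log2 ratios, -2.78 to 0.65, than the adipokines, -0.42 to 0.28. These ranges come from lists of unlike size, 27 and 7 genes, and unlike depth, with as few as 134 Fst fragments in the ILN/ILN library. Of 27 measured genes 13 had a ratio above 1 and 14 below, with a median log2 ratio of -0.07. Higher by at least 25% were 7 and lower by at least 20% were 9, against 12.1% and 15.7% of all measured genes. Retnla, the resistin-like molecule alpha of macrophages and fat tissue and a paralog of Retn, was at 1277 in the ILN/ILN library and 2397.5 in the WT library (1.88-fold lower; 1.85 to 1.90). There were 2.32 Retn fragments per Retnla fragment in the ILN/ILN library and 1.08 in the WT library. Lcn2, a secreted lipocalin of epithelium, neutrophils and fat, was at 4.01 in ILN/ILN and 27.4 in WT (6.85-fold lower; 5.74 to 8.23). Fst, which encodes the activin inhibitor follistatin, was at 1.31 in ILN/ILN and 5.53 in WT (4.22-fold lower; 3.49 to 5.12), and Sfrp1, an inhibitor of Wnt signalling, at 1.06 in ILN/ILN and 3.52 in WT (3.34-fold lower; 2.85 to 3.91). Agt, the precursor of angiotensin, was at 18.3 in the ILN/ILN library and 32.0 in the WT library (1.75-fold lower; 1.64 to 1.87), and C1qtnf1, a relative of adiponectin, at 34.1 in ILN/ILN and 53.5 in WT (1.57-fold lower; 1.51 to 1.63). Bmp4 was the single gene of this list at least 1.5-fold higher, at 4.24 in ILN/ILN and 2.69 in WT (1.57; 1.34 to 1.86). Of other relatives of adiponectin on the list 4 were measured, and they were not alike (a group picked with its values known). C1qtnf2 was at 6.12 in the ILN/ILN library and 8.002 in the WT library (1.31-fold lower; 1.13 to 1.52), C1qtnf7 at 7.19 in ILN/ILN and 7.52 in WT with an interval that spans 1 (ratio 0.955; 0.829 to 1.10), and C1qtnf9 at 13.4 in ILN/ILN and 11.5 in WT (1.16; 1.06 to 1.26). Fam132a, which encodes adipolin, was at 63.3 in the ILN/ILN library and 52.0 in the WT library (1.22; 1.16 to 1.28).

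The genes most like each adipokine were sought by the distance between pairs of log2(value + 1) over the 2 libraries, among 9932 measured genes. Over 2 libraries this measures a shared level and ratio and nothing more. Nearest to Lep was Gstm2 (distance 0.010), to Adipoq Lgals1 (0.040), to Retn Lpl (0.107), to Rbp4 Mdh2 (0.034), to Nampt Angel2 (0.015) and to Rarres2 Rpl10a (0.029). Cfd had no close neighbour, since its nearest was Fabp4 at a distance of 0.691.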

How the data were processed

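Polyadenylated mammary gland RNA was sequenced in 1 ILN/ILN and 1 WT library, with 2 lanes per sample and the second strand marked by dUTP, per the labels' protocols. Bedtools, TopHat 1.4.1, Bowtie 0.12.3 and build mm9 are listed, per the submitters' processing notes, without saying which step used which. The gene counting program and annotation, whether strand was used and how reads with several matches were counted: not given in the sources used here.

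Per the file headers the authors deposited an FPKM-like value for each gene. It is their final signal per kilobase over a library constant (45.2 for ILN/ILN, 48.6 for WT). A deposited column holds log2(value + 1) and was not used. Fragments were the authors' original signal per kilobase times the deposited length over 1000, whole within 0.01 in every gene with a length. They are absent for 38 genes without one, none an adipokine. No source used here says whether a fragment is a read or a read pair.

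Ratios were scaled by the sum of fragments. A count of 0 was set to 3 fragments in list medians and fold counts, and genes at or under 3 in both libraries were set to a log2 ratio of 0. All 7 adipokines and the direct partners are named. In each other list, genes past 1.5-fold, or otherwise up to 4 with the largest ratios, could be named, and not all were, least among markers of other cell types. Plin1 and Fabp4 are named as denominators. Cidec, Thrsp, Spint1, Ehf, Trp63, Acta2, Myh11, Cnn1, Oxtr and some relatives of adiponectin were named outside this rule, after their values were seen. The 7 genes and the 17 other lists were chosen with earlier results of these data known, and no list test was made. Alternatives covered scaling, the deposited value, pseudocounts, minimum, fold and adipocyte denominators. Ratios and intervals were tested on simulated counts. GENCODE M21 and RefSeq (GRCm38) served for sequences only, since their build differs from mm9. Python 3.11.15, NumPy 2.4.6, pandas 2.3.3, SciPy 1.17.1 and Matplotlib 3.10.9 were used.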

Additional observations from a re-analysis of the deposited data

How the results depend on the processing

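No paired analysis was possible because each genotype had 1 library, and for the same reason no replicate could be left out. The median log2 ratio of the 7 adipokines lay between 0.083 and 0.105 under 4 other scalings, the deposited values and 3 pseudocounts, and the number at least 20% lower was 1 under every scaling and 0 with a fold of 1.5 or 2. Of 56 values of single adipokines under these settings, 1 took the other sign, Adipoq at -0.0035 with the median of gene ratios. The log2 ratio of the adipokine sum, -0.31, was -0.33 with the median of ratios, -0.32 with the upper quartile and 0.066 without Cfd. The median adipokine relative to white adipocyte genes, -0.15 against the list's median, was -0.047 against its summed fragments, -0.30 against Plin1 and 0.15 against Fabp4. With other signs than against the list's median were Retn at 0.040 against summed fragments, Rbp4 at -0.12 against Plin1, and Adipoq at 0.060, Lep at 0.15, Retn at 0.23 and Nampt at 0.16 against Fabp4. With the median of ratios the medians of the folding, NAD and regulator lists were -0.0077, -0.012 and -0.0019, and with a minimum of 5 those of liver and skeletal muscle markers, 0.27 and -0.15 with the minimum of 1, were -0.0029 and 0.20. On the deposited values with a pseudocount of 1 the NAD median was 0.12, and with a minimum of 5 it was 0.067. The cause was not tested. Depth limits Lepr, Stra6 and Ccrl2, whereas for the adipokines the lack of replicates is the limit.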

Other observations

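The deposited tables hold a derived estimate of the signal per kilobase beside the original. For Rbp4, which has 2 annotated isoforms, the derived estimate was 51.8 in the ILN/ILN library and 131 in the WT library, and the original estimate was 22671 in the ILN/ILN library and 20071 in the WT library. The derived and original estimates thus differed in opposite directions between the libraries, and the deposited value used the original. For the other 6 adipokines, each with 1 isoform, both estimates were equal.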
